A study of Mus musculus with 10 samples.

Results

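The serpin rows examined here are Serpina3n, Serpina3m, Serpina3g, Serpina3f, Serpina3i, Serpine2, Serpinf1 and Serpinh1. These 8 rows were taken by symbol from the 50763 genes of the count table, among which 69 rows carry a Serpin symbol and 14 of those a Serpina3 symbol. The libraries were made from lens epithelial explants of 3-week-old FVB/N mice, pooled from up to 9 mice per WT or OVE853 sample and up to 7 mice per OVE918 sample. There were 3 WT, 3 OVE853 and 4 OVE918 samples, each 1 RNA-seq library. OVE853 and OVE918 are independent, homozygous transgenic families in which the lens-specific αA-crystallin promoter drives a secreted human TGF-β1 that needs no activation. The WT mice share their background and carry no transgene. Both families develop anterior subcapsular cataract, in which lens epithelial cells turn into plaques of myofibroblast-like cells. The whole epithelium was sequenced and not the plaque alone, so that fewer cells of a type cannot be told apart from less RNA per cell.

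Serpins are protease inhibitors that act only once. They offer a protease an exposed stretch, the reactive centre loop, as bait, and on cleavage the serpin snaps into a new fold that holds the protease in a covalent complex. The sequence of the loop sets which protease is caught, and some members of the family have lost inhibition and serve other roles. Serpina3n is a secreted mouse counterpart of human antichymotrypsin and is known as an acute-phase protein that reacts to inflammation, and Serpina3g is an intracellular inhibitor of lysosomal cysteine proteases. Serpina3m, Serpina3f and Serpina3i lie in the same gene cluster. Serpine2 (protease nexin 1) inhibits thrombin and plasminogen activators at the cell surface. Serpinf1 (pigment epithelium-derived factor, PEDF) does not inhibit proteases and is known as an anti-angiogenic and neurotrophic factor. Serpinh1 (HSP47) is a chaperone for procollagen in the endoplasmic reticulum.

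The Serpina3 genes are paralogs side by side on chromosome 12. In the GENCODE annotation of GRCm39, Serpina3f spans chr12:104180772-104187388, Serpina3g chr12:104202386-104208203, Serpina3i chr12:104229363-104238677, Serpina3m chr12:104304745-104361078 and Serpina3n chr12:104372810-104380597, all on the plus strand. Their coding sequences were 84.3% to 85.2% identical to that of Serpina3n over the aligned bases. The likeness was lowest near the end of the coding sequence. Identity averaged over the other 4 listed paralogs had a median of 87.1% in the 197 windows of 60 bases that all 4 span. These start from base 607 on, where Serpina3g begins. In the window at bases 1126 to 1185 of the 1254 coding bases of Serpina3n, the average was 58.3%. This window lies in the last of 5 exons of Serpina3n, at chr12:104379734-104379793, in the part of a serpin where the reactive centre loop is encoded. It is shown here because it is where the other 4 listed paralogs differ most from Serpina3n. Capitals mark bases that differ from Serpina3n, or have no counterpart in it, in an alignment of the coding sequences, 5′ to 3′. The Serpina3f stretch is 3 bases longer than the others because the alignment places inserted bases in it.
Serpina3n: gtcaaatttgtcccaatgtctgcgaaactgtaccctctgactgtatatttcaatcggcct
Serpina3m: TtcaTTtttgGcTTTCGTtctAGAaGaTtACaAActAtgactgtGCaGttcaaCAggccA
Serpina3g: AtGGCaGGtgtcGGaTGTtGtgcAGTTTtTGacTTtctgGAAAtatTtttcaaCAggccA
Serpina3f: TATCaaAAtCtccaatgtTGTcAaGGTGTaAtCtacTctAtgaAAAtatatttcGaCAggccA
Serpina3i: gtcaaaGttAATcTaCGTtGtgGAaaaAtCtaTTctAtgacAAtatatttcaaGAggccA
Serpina3g shared 31 of the 60 bases with Serpina3n in this window, Serpina3m 34, Serpina3f 36 and Serpina3i 39. The plot of identity along the coding sequence shows the same dip in all 4 paralogs.

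**Figure D1:**
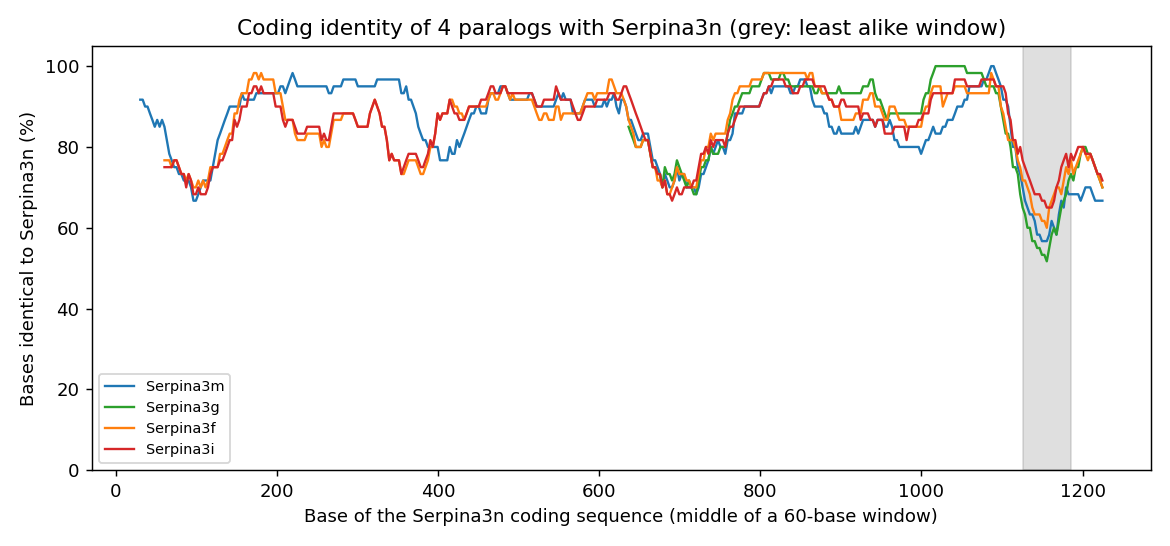
Share of bases identical to Serpina3n (%) in 60-base windows along the Serpina3n coding sequence (x axis, base at the middle of the window) for Serpina3m, Serpina3g, Serpina3f and Serpina3i. The grey band marks bases 1126 to 1185, where the mean identity of 58.3% was the lowest of 197 windows; Serpina3g starts later because its annotated coding sequence has 744 bases.

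Because paralogs can share reads, the transcripts were compared for identical stretches. At the read length of 150 bases, 0 of 2102 windows of the Serpina3n transcript recurred in another Serpina3 transcript of the reference, and the same held for Serpina3g, Serpina3f and Serpina3i. Serpina3m shared 5 of its 3349 windows of that length, all with Serpina3k. At 50 bases, 6.31% of Serpina3n windows and 8.58% to 14.4% of those of the other 4 listed paralogs recurred elsewhere in the cluster. The reference genome is of another strain than these mice, so that the summed counts of the 5 listed rows are given beside each single row.

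The promoters were searched for short motifs in RefSeq windows from 250 bases before to 50 after each start (tables on GRCm38.p6), which matched 7 of the 8 members, all but Serpina3m. The windows of Serpina3f, Serpina3g and Serpina3i each held the STAT letters TTCNNNGAA on the plus strand, and 8.3% of all 32851 mouse windows held them on either strand. The aligned bases of Serpina3n did not match these letters. The 4 stretches are printed to compare Serpina3n, Serpina3g and Serpina3i, which were elevated, with Serpina3f, which had too few counts to compare, with the aligned site in capitals and coordinates from an exact match of each window to GRCm39.
Serpina3f, chr12:104180672-104180700: tcagttctatTTCCTAGAAatcacccatt
Serpina3g, chr12:104202363-104202391: taagttatagTTCCCAGAAatcacccggt
Serpina3i, chr12:104229269-104229297: taagtgcttgTTCCCAGAAatcacccagt
Serpina3n, chr12:104372834-104372862: caaatccatgTTACCAGAAatcatccagt
The Serpina3n window held a match to the glucocorticoid motif (GNACA and TGTNC with 3 bases between them), from 78 to 66 bases before its RefSeq start. Of all windows, 0.475% hold this motif. The windows of Serpina3f and Serpina3i held a stretch that misses it at the last base only. Both Serpina3n stretches printed here lie after the GENCODE start of the gene, chr12:104372810.
Serpina3n, chr12:104372881-104372909: agcacagaGCACAGCTTGTCCatgccagc
The SMAD letters CAGACA, which 21% of all windows hold on either strand, occurred in the windows of Serpinf1 and Serpinh1 and in 1 of the pair of Serpina3f windows. The AP-1 letters TGANTCA (7.81% of all windows) and the heat shock motif (GAA, TTC and GAA with 2 bases between each, 0.603%) occurred in 0 of the 7 members. The C/EBP letters TTGCNNAA (10.8% of all windows) occurred in Serpina3f alone, and the NF-kB motif (GGG and CC with 5 bases between them, 50.8%) in Serpina3n, Serpina3g, Serpina3f, Serpina3i, Serpine2 and Serpinh1. These are matches of letters and were not tested as binding sites.

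Depth was alike in all libraries, while markers of cell types, those of lens epithelium included, differed between them. Total counts on genes were 24073311 to 28645174 in WT, 27409730 to 31908525 in OVE853 and 25342220 to 28562553 in OVE918. The label check was the Tgfb1 row, at 50.6 to 61.7 CPM (counts scaled to library size) in WT, 338.7 to 361.3 in OVE853 and 715.5 to 880.8 in OVE918. The authors state that this row holds reads of mouse Tgfb1 and also reads of the human transgene that map to it. The 9 lens epithelium markers, among them Foxe3, Pax6, Cryaa and Mip, were above 0 in every library. Their summed CPM was 156770 to 164690 in WT, 106920 to 122190 in OVE853 and 132760 to 201880 in OVE918. WT replicate 3 stood apart, with summed CPM of 10 retinal neuron markers of 754 against 26.5 to 128 in the other 9 libraries, and of 6 endothelial markers of 118 against 19.2 to 33.8. Summed CPM of 8 macrophage markers was 14.0 to 34.2 in WT and 24.5 to 63.0 in the transgenic libraries. Summed CPM of 6 cornea markers, of which 1 to 3 were at 0 in a library, was 239.5, 938.4 and 1619 in the WT libraries and 27.3 to 94.3 in the transgenic libraries. That of 6 Mueller glia markers, none of them at 0, was 3524 to 5303 in WT and 2060 to 2933 in the transgenic libraries. The part of these differences in the results was not tested. Of the 7 markers of T cells and neutrophils, 3 to 7 were at 0 in each library. The scaling to CPM uses TMM factors, and FPKM, which also divides by exon length, is used where genes are compared with each other.

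Serpina3n was by far the most abundant of the Serpina3 rows and moved from an ordinary level in WT to one of the top 100 genes in both lines. Its CPM was 72.9, 50.9 and 77.3 in the 3 WT libraries. It was 1041, 840.2 and 1091 in OVE853. It was 1275, 1095.5, 1579 and 1617 in OVE918. Every transgenic library thus lay above every WT library, and without regard to size the groups did not overlap in this direction for 23.4% of tested genes in OVE853 and 12.3% in OVE918. Every OVE918 library lay above every OVE853 library. The mean was 67.0 ± 14.1 in WT (SD, n = 3), 991 ± 133 in OVE853 (SD, n = 3) and 1392 ± 250 in OVE918 (SD, n = 4). On the scale of FPKM, Serpina3n ranked 1568 of 11092 tested genes in WT, 78 in OVE853 and 65 in OVE918. In edgeR's quasi-likelihood test it was elevated 14.8-fold in OVE853 (log2 fold change 3.89, SE 0.22, adjusted p = 2.64e-06) and 20.8-fold in OVE918 (4.38, SE 0.22, adjusted p = 1.15e-06). The OVE918 to OVE853 difference was 0.49 in log2 (SE 0.18, edgeR adjusted p = 0.159) and did not pass the test.

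**Figure D2:**
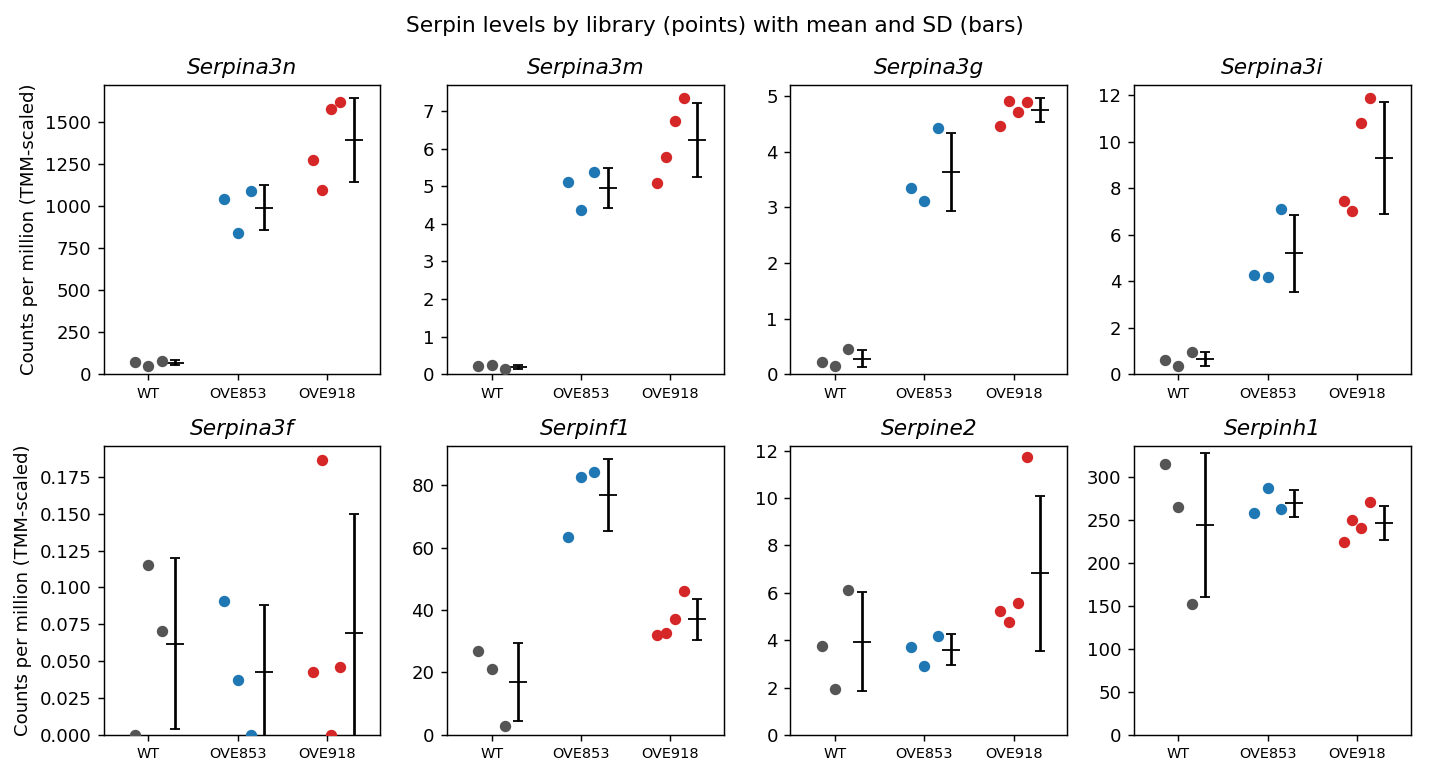
CPM of the 8 serpin rows (y axes, each from 0) in WT, OVE853 and OVE918, with 1 point per library and the mean and SD beside the points (SD bars are cut off at 0). Serpina3n, Serpina3m, Serpina3g and Serpina3i lie far above WT in every transgenic library, Serpinf1 is highest in OVE853, and Serpine2 and Serpinh1 overlap between the lines and WT.

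The summed counts of the 5 listed Serpina3 rows followed Serpina3n, which held 98.0% to 98.8% of the sum in every library (95% exact binomial bounds from 97.3% to 99.1%, counting error only). The sum was 74.0, 51.8 and 78.9 CPM in WT. It was 1053, 851.9 and 1108 CPM in OVE853 and 1292, 1113, 1601.5 and 1641 CPM in OVE918. In the test with the 5 rows replaced by their sum, it was elevated by 3.88 in log2 in OVE853 (SE 0.22, edgeR adjusted p = 2.7e-06) and by 4.37 in OVE918 (SE 0.22, adjusted p = 1.15e-06). Between the lines the difference was 0.49 (SE 0.18, edgeR adjusted p = 0.159). Adding all 14 Serpina3 rows gave 3.76 and 4.28 against WT.

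The minor paralogs Serpina3m, Serpina3g and Serpina3i were elevated with it from levels close to 0, while Serpina3f was not expressed at a level this depth could compare. Serpina3i had 14, 9 and 27 counts in WT, 141, 113 and 209 in OVE853, and 174, 188, 291 and 257 in OVE918. Its log2 fold change was 3.00 in OVE853 (SE 0.38, edgeR adjusted p = 0.000546) and 3.83 in OVE918 (SE 0.37, adjusted p = 5.16e-05). It entered the test through transgenic libraries alone, since 2 FPKM in 5 libraries were asked for and all its WT values were below 0.41 FPKM.

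Serpina3m and Serpina3g were below that limit and were tested after edgeR's own filter on counts (filterByExpr), which they likewise passed through the transgenic libraries. Serpina3m had 5, 6 and 4 counts in WT, 169, 118 and 158 in OVE853, and 119, 155, 181 and 159 in OVE918. It had the largest fold changes of the listed rows, at 4.63 in log2 in OVE853 (SE 0.29, edgeR adjusted p = 9.2e-06) and 4.98 in OVE918 (SE 0.28, adjusted p = 3.04e-06). Serpina3g had 5, 4 and 13 counts in WT, 111, 84 and 130 in OVE853, and 104, 132, 127 and 106 in OVE918. Its log2 fold changes were 3.68 (SE 0.34, edgeR adjusted p = 0.000135) and 4.08 (SE 0.34, adjusted p = 2.84e-05). Each of the 3 minor paralogs held at most 1.2% of the summed counts in any library. Because they entered through the transgenic libraries, their rise over WT is not independent of the filters.

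Serpina3f had 0, 3 and 2 counts in WT, 3, 1 and 0 in OVE853, and 1, 5, 0 and 1 in OVE918. A floor of 3 counts equals 0.0086% of the summed Serpina3 counts in OVE853 replicate 1, and no fold change is given for this row. It is the single listed Serpina3 row that entered neither test. Its promoter window holds the same STAT letters as those of Serpina3g and Serpina3i, and its coding sequence is 85% identical to Serpina3n.

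Between the lines, none of the 4 tested paralogs passed the test. The OVE918 to OVE853 differences in log2 were 0.84 for Serpina3i (SE 0.29, edgeR adjusted p = 0.138, and 0.0456 by DESeq2, short of the minimum log2 fold change of 1), 0.35 for Serpina3m (SE 0.20, adjusted p = 0.398) and 0.40 for Serpina3g (SE 0.27, adjusted p = 0.448). All were above 0, and the libraries of the lines did not overlap for Serpina3n and Serpina3g, as in 13.4% of all tested genes in this direction (11% after filterByExpr). The Tgfb1 row, a mixture of mouse and human transgene reads, differed between the lines by 1.15 in log2 (SE 0.11, edgeR adjusted p = 0.00388).

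Outside the listed rows, the Serpina3 cluster held further transcripts that were elevated in both lines. Serpina3h, which GENCODE lists as a long noncoding RNA and which lies between Serpina3g and Serpina3i, had the next highest counts after Serpina3n. Its CPM was 8.32, 6.19 and 13.6 in WT, 49.1, 45.5 and 56.9 in OVE853, and 82.9, 70.5, 100.8 and 121 in OVE918. It was elevated 5.37-fold in OVE853 (log2 2.43, SE 0.28, edgeR adjusted p = 0.000368) and 9.98-fold in OVE918 (log2 3.32, SE 0.28, adjusted p = 2.72e-05). Its share of all Serpina3 counts was 10.0% to 14.7% in WT, 4.44% to 5.05% in OVE853 and 5.90% to 6.85% in OVE918, while that of Serpina3n was 83.4% to 87.9%, 93.3% to 94.0% and 91.3% to 92.4%. The pseudogene Serpina3e-ps had a mean of 0.204 CPM in WT, 2.51 in OVE853 and 4.22 in OVE918 (log2 3.65, SE 0.36, edgeR adjusted p = 0.000112, and 4.39, SE 0.34, adjusted p = 1.24e-05). At 50 bases, 4.58% of its windows recurred in Serpina3n, so that its counts are uncertain. Serpina3c had 0 to 3 counts in WT, 29 to 45 in OVE853 and 42 to 56 in OVE918. Of the 14 rows, 9 had any count.

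**Figure D3:**
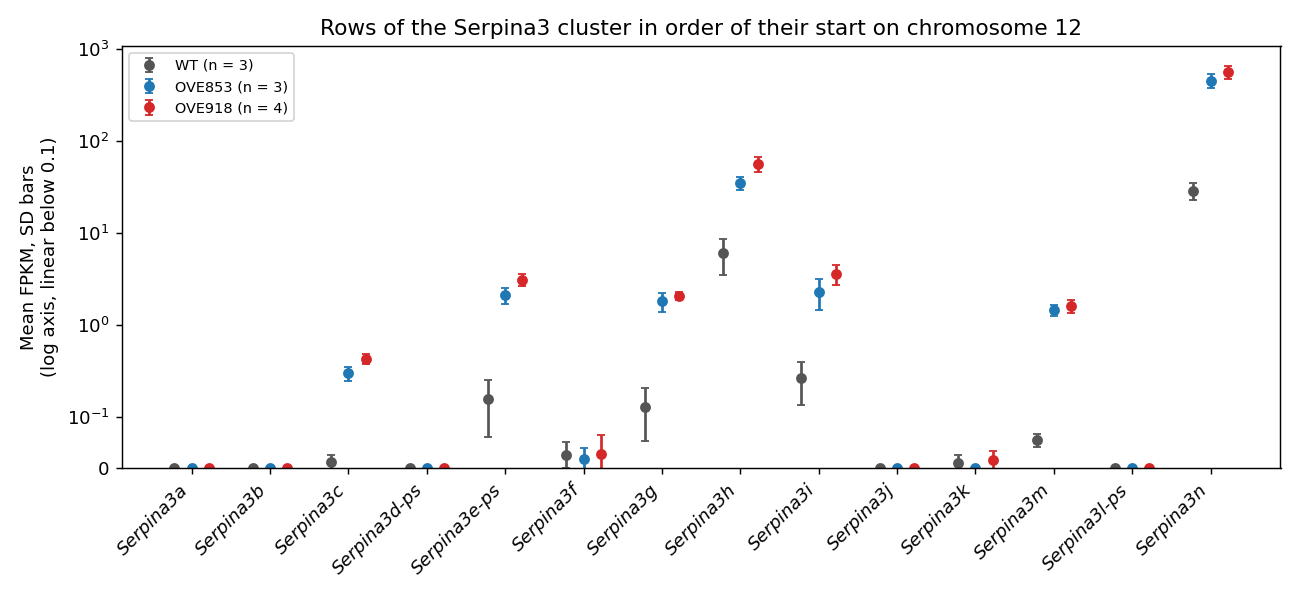
Mean FPKM with SD of the 14 Serpina3 rows (x axis, in order of their start on chromosome 12) in WT, OVE853 and OVE918, on an axis that is logarithmic above 0.1 and linear below. Serpina3n stands at 28.9 FPKM in WT, 455 in OVE853 and 563 in OVE918, Serpina3h follows at 6.10, 34.9 and 56.9, and Serpina3m, Serpina3g, Serpina3i and Serpina3e-ps have means of at most 0.267 in WT and 1.46 to 3.62 in the lines. Serpina3c lies at 0.300 and 0.435 in the lines, Serpina3f and Serpina3k at no more than 0.0288 in any group, and 5 rows at 0.

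Serpinf1 (PEDF) was elevated in OVE853 and followed an order of the lines unlike that of the Serpina3 rows. Its CPM was 26.9, 21.1 and 2.95 in WT, the last in the replicate that stood apart. It was 63.4, 82.6 and 84.2 in OVE853 and 32.0, 32.7, 37.1 and 46.2 in OVE918. Each OVE853 library lay above each OVE918 library (29.5% of tested genes did not overlap between the lines in either direction). Every library of both lines lay above each WT library. The groups did not overlap in this direction for 23.4% of tested genes in OVE853 and 12.3% in OVE918. The log2 fold change was 2.18 in OVE853 (SE 0.60, edgeR adjusted p = 0.0429) and 1.13 in OVE918 (SE 0.56, adjusted p = 0.201), and OVE918 was below OVE853 by 1.05 (log2 -1.05, SE 0.53, adjusted p = 0.272). Without WT replicate 3, the OVE853 fold change was 1.68 (edgeR adjusted p = 0.000317), that of OVE918 0.62 (adjusted p = 0.0402), and the line difference was -1.05 (adjusted p = 0.0129). Leaving out any 1 of the other libraries except WT replicate 1 moved the OVE853 call past the threshold, with adjusted p up to 0.116. The Serpinf1 call in OVE853 therefore rests close to the threshold, while WT replicate 3 lay far below the other WT libraries. Sums of marker lists of non-pigmented ciliary epithelium, of fibroblasts and mesenchyme and of macrophages had group means in the same order as Serpinf1. Members of the first list went against it. The summed CPM of 7 markers of non-pigmented ciliary epithelium, none of them at 0 in any library, was 847 to 1193 in WT, 1616 to 1887 in OVE853 and 1336 to 1615 in OVE918. Of its 6 tested markers, 1 was elevated in both lines (Car2), while 3 were reduced in OVE853 (Best2, Slc6a13 and Wfdc1) and 4 in OVE918 (these and Zic1). The summed CPM of 6 markers of fibroblasts and mesenchyme, of which at most 1 was at 0 in a library, was 413 to 571 in WT, 689 to 721 in OVE853 and 422 to 613 in OVE918. That of 8 macrophage markers was 14.0 to 34.2 in WT, 38.1 to 56.0 in OVE853 and 24.5 to 63.0 in OVE918. The sum of 9 pigmented epithelium markers did not follow this order. It was 58.7 to 181 CPM in WT, 39.2 to 83.0 in OVE853 and 40.2 to 75.8 in OVE918. The tested fibroblast markers, Pdgfra and Pdgfrb, were not called in OVE853 (edgeR adjusted p = 0.0772 and 0.1085). Neither were the tested macrophage markers, C1qa and C1qb (edgeR adjusted p = 0.0586 and 0.0744). The part of these cell types in the Serpinf1 result was not tested.

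Serpinh1 (HSP47) was the most abundant listed serpin in WT on the FPKM scale and did not pass the test in either line. Its CPM was 315, 265 and 152 in WT, again lowest in WT replicate 3. It was 259, 288 and 263 in OVE853 and 225 to 271 in OVE918, and the OVE853 libraries lay closest together. The groups overlapped. Its log2 fold change was 0.14 in OVE853 (SE 0.21, edgeR adjusted p = 0.65) and 0.02 in OVE918 (SE 0.20, adjusted p = 0.967). Without WT replicate 3 both values turned to the other side of 0, at -0.11 and -0.23 (edgeR adjusted p = 0.605 and 0.198).

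The collagen genes and collagen-modifying enzymes that Serpinh1 works with were taken as a list. Of 16 tested genes on this list, 2 passed in OVE853, Col1a1 (log2 2.81, SE 0.56, edgeR adjusted p = 0.0121) and Col5a1 (1.00, SE 0.25, adjusted p = 0.0261), and 1 in OVE918, Col1a1 (3.18, SE 0.55, adjusted p = 0.00396), beside 2.52% and 2.58% of all tested genes called higher. The list median was 0.48 and 0.24, beside -0.01 and 0.01 over all tested genes. Without WT replicate 3 it was 0.30 and 0.0063. The call of Col5a1 was lost without WT replicate 2 or 3, and without WT replicate 1 P4ha1 was called in OVE918 as well. Of 9 tested heat shock genes, to which Serpinh1 belongs by its regulation, 0 passed in either line by edgeR.

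Serpine2 was the least abundant of the listed serpins outside the cluster. Its CPM was 3.76, 1.92 and 6.10 in WT, 3.72, 2.89 and 4.19 in OVE853, and 5.23, 4.77, 5.57 and 11.7 in OVE918. One OVE918 library, replicate 4, was well above the rest. The log2 fold change was -0.13 in OVE853 (SE 0.43, edgeR adjusted p = 0.852) and 0.79 in OVE918 (SE 0.40, adjusted p = 0.203), and the line difference was 0.92 (SE 0.40, adjusted p = 0.209). Without OVE918 replicate 4 the OVE918 values became 0.40 against WT and 0.53 against OVE853.

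**Figure D4:**
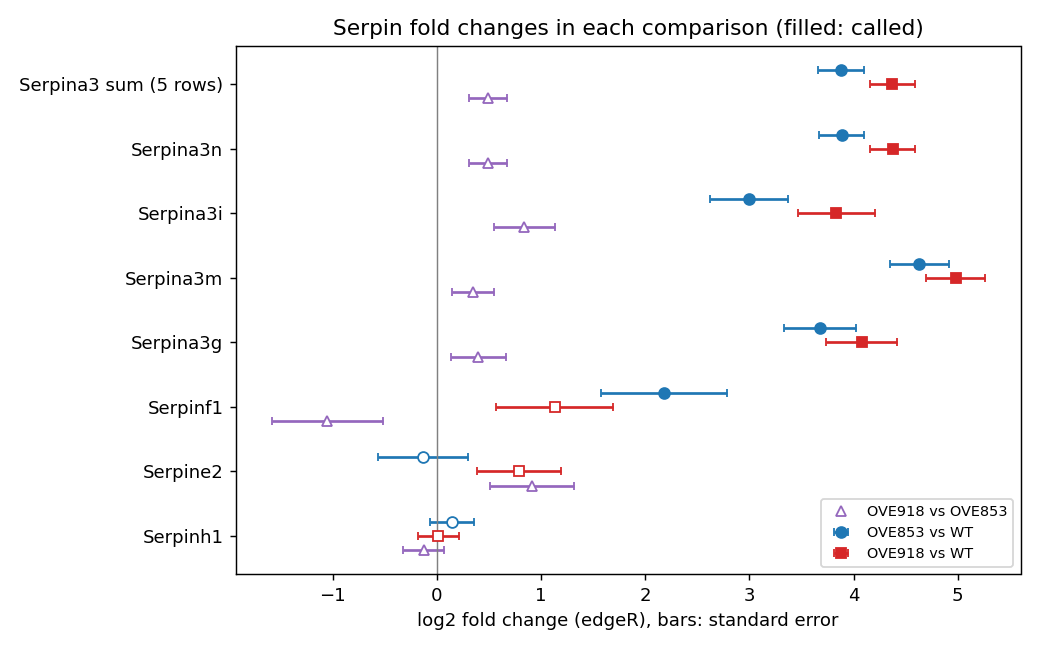
log2 fold changes with their standard errors (x axis) for the Serpina3 sum and 7 listed serpins in the 3 comparisons, where filled symbols passed the test. The Serpina3 rows lie between 3.00 and 4.98 against WT, and no row is filled for OVE918 against OVE853; Serpina3m and Serpina3g come from the fit after filterByExpr.

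Read together, 5 of the 8 members entered the main test. Of these, 3 passed in OVE853 (Serpina3n, Serpina3i and Serpinf1), beside 4.43% of all tested genes in either direction and 2.52% among the elevated. In OVE918 2 passed (Serpina3n and Serpina3i), beside 5.6% in either direction and 2.58% elevated. After filterByExpr 7 members were tested and 5 and 4 passed, beside 6.89% and 8.79% of 18058 genes. Serpina3i, Serpina3m and Serpina3g could enter only through their transgenic values, so these counts are not independent of their direction. Between the lines 0 members passed by edgeR and 0 by DESeq2, beside 0.487% of all tested genes by edgeR (0.244% after filterByExpr).

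The other serpins expressed in these epithelia gave a mixed picture. Serping1, the inhibitor of complement C1, had 61.7 to 92.5 CPM in WT, 170.5 to 229.8 in OVE853 and 85.3 to 119 in OVE918. It was elevated 2.73-fold in OVE853 (log2 1.45, SE 0.18, edgeR adjusted p = 0.000547). In OVE918 its log2 fold change was 0.56 (SE 0.17, edgeR adjusted p = 0.0425), below the minimum log2 fold change of 1, and the lines differed by -0.89 (SE 0.17, adjusted p = 0.0382). Serpinb6b, an intracellular serpin, was elevated in OVE853 (log2 1.24, SE 0.20, edgeR adjusted p = 0.0024) and stood at 0.69 in OVE918 (SE 0.19, adjusted p = 0.0265).

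Of 42 serpin rows with at least 1 count, 20 entered the test after filterByExpr. The 7 rows of the Serpina3 cluster among them had the highest fold changes in OVE918. Of these, Serpina3c, Serpina3e-ps, Serpina3m, Serpina3g and Serpina3i passed the filter through their transgenic values, so that a high place was built in for them. At the other end, Serpine3 had 10 to 78 counts in WT, 0 to 4 in OVE853 and 0 to 13 in OVE918. Its log2 fold change was -4.37 in OVE853 (SE 1.15, edgeR adjusted p = 0.0336) and -2.36 in OVE918 (SE 0.89, adjusted p = 0.0954), where its libraries overlapped those of WT. Serpini1 (neuroserpin, which neurons secrete) had -2.33 in OVE853 and -2.45 in OVE918 (edgeR adjusted p = 0.0422 and 0.0186), from 3.62 to 20.9 CPM in WT, the highest value being that of WT replicate 3, which also had the highest retinal neuron markers; their part in this result was not tested.

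**Figure D5:**
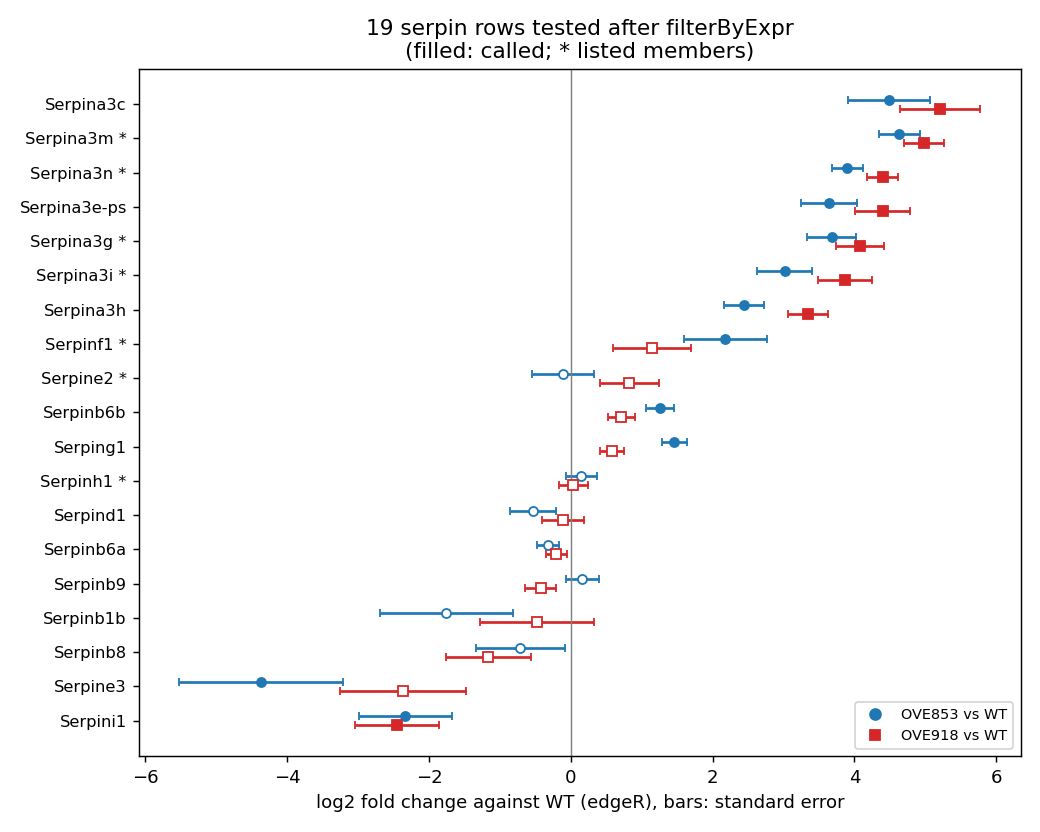
log2 fold changes against WT with their standard errors (x axis) of 19 of the 20 serpin rows tested after filterByExpr, ordered by their value in OVE918, with listed members marked by an asterisk and calls filled. The 7 Serpina3 rows are at the top with every symbol filled and Serpini1 is at the bottom; WT held at most 3 counts of Serpina3c, so its plotted value is a fitted one.

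Genes that share a role with the Serpina3 proteins were taken as lists. All gene lists here were chosen with earlier results of these data known, so their counts are not independent of those results. Of 13 tested acute-phase and STAT3 genes, 8 were elevated in OVE853 (Bcl3, C3, Cp, Lbp, Lcn2, Osmr, Stat3 and Timp1) and 4 in OVE918 (Bcl3, Lbp, Osmr and Timp1), beside 2.52% and 2.58% of all tested genes called higher, with list medians of 2.10 and 1.48 beside -0.01 and 0.01 over all tested genes. Without WT replicate 3 these counts were 7 and 5. Lcn2 (log2 2.12, SE 0.61, edgeR adjusted p = 0.0473) lost its call in OVE853 whichever WT library was left out. The macrophage markers, 8 of 8 of them above 0 in every library, were also higher in most transgenic libraries than in WT, and their part in these counts was not tested. The values were largest for Bcl3, a nuclear partner of NF-κB (log2 5.17, SE 0.24, edgeR adjusted p = 7.07e-07, and 4.92, SE 0.23, adjusted p = 1.15e-06). Its mean was 0.61 CPM in WT, 21.8 in OVE853 and 18.4 in OVE918. At so low a WT level it likely entered the test through the transgenic libraries. Its rise and its place in these counts are then not independent of the filter, as for any listed gene low in WT. Timp1, the inhibitor of matrix metalloproteinases, had 2.41 and 3.34 (SE 0.23 in both, edgeR adjusted p = 0.000106 and 6.11e-06). Lbp, the lipopolysaccharide-binding protein, had 4.33 and 3.14 (edgeR adjusted p = 3.42e-06 and 1.21e-05) and was lower in OVE918 than in OVE853 (log2 -1.18, SE 0.19, adjusted p = 0.0249). Osmr, the oncostatin M receptor chain, had 2.21 and 2.03 (edgeR adjusted p = 0.000486 and 0.000367).

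The proteases and cofactors that serpins act on formed 2 lists, read against the 2.52% and 2.58% of all tested genes called higher. Of 9 tested genes of plasminogen activation and thrombin, only Thbd passed, the thrombin receptor thrombomodulin, elevated by 2.598 in OVE853 (SE 0.29, edgeR adjusted p = 0.000224) and 2.11 in OVE918 (SE 0.28, adjusted p = 0.000378). Of 5 tested serine proteases of the matrix and secretory route, only Hpn (hepsin) passed, at 3.55 (SE 0.39, edgeR adjusted p = 0.000227) and 3.76 (SE 0.38, adjusted p = 7.84e-05). Without WT replicate 1, Htra1 of the latter list was called in both lines as well. The medians of both lists were within 0.40 of 0. Of 7 tested glucocorticoid targets, 2 were reduced in OVE853 and 3 in OVE918, beside 1.91% and 3.02% of all tested genes in this direction, led by Sgk1 (log2 -3.12 and -2.74, edgeR adjusted p = 3.97e-05 and 1.89e-05) and Mt1 (-3.29 and -2.65, adjusted p = 0.00182 and 0.00168). Without WT replicate 3, 2 were reduced in each line. Of 6 tested genes of the anti-angiogenic and PEDF list, Col18a1, the source of endostatin, was reduced in both lines (log2 -1.29, SE 0.19, edgeR adjusted p = 0.00168, and -2.73, SE 0.18, adjusted p = 5.26e-06), and more so in OVE918 (line difference -1.44, SE 0.18, adjusted p = 0.00964). Kdr of this list, which is also among the endothelial markers, was not called in either line (OVE853 log2 -2.25, SE 0.81, edgeR adjusted p = 0.0922). It was called lower in both lines without WT replicate 1 and in OVE918 without WT replicate 2. In neither line was it called without WT replicate 3, the library with the highest endothelial marker sum. The part of endothelial cells in this was not tested.

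Among the 5 tested genes whose profile over the 10 libraries lay closest to that of the Serpina3 sum were Cpxm2, Tgfbi, Bcl3 and Col5a3. Their root mean square difference in log2 CPM, each gene centred on its own mean, was 0.334, 0.353, 0.397 and 0.415. Cpxm2 encodes a carboxypeptidase-like protein and stood at 5.16 CPM in WT, 91.1 in OVE853 and 85.2 in OVE918. Tgfbi, an extracellular matrix protein named for its induction by TGF-β, stood at 3.63, 84.5 and 126 CPM. This is a description of likeness over shared libraries, without a test.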

How the data were processed

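RNA-seq libraries of lens epithelium, 3 WT, 3 OVE853 and 4 OVE918, were analysed. The authors trimmed paired reads with Cutadapt (5.2), aligned them with STAR (2.7.11b) and made the deposited counts per gene with featureCounts (2.0.8), reverse-stranded, on a RefSeq annotation of mm39; these tools and versions are those of the submitters' processing notes and the methods. The counts were deposited without normalization, as whole numbers for 50763 genes.

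Counts were tested in R 4.3.3 with edgeR 4.0.16 (TMM, robust quasi-likelihood fit over 3 groups, Benjamini-Hochberg within each contrast). To be called, a gene needed an adjusted p of no more than 0.05 and a change of 1 or more in log2 in either direction. Genes entered with at least 2 FPKM in 5 of 10 libraries (11092 genes), with exon lengths of GENCODE vM39 matched by symbol, since the authors' annotation was not used here. Serpina3m and Serpina3g, below this limit, were taken from a fit after filterByExpr (18058 genes). SEs are those implied by the F statistic. For the Serpina3 sum, the 5 rows were replaced by 1 row before the fit. Fold changes over WT in both lines use the same WT libraries. Exact binomial bounds at 95% and the floor of 3 counts cover counting error only.

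The members and gene lists were chosen with earlier results of these data known. Named are the 8 members, Tgfb1, other serpins called against WT in the main test or among the 5 most abundant, called genes of each list (at most 4 by size in OVE918, all where counted), and the 5 nearest profiles, of which 4 are given. Serpini1, Serpine3, Serpina3c, the ciliary epithelium, pigmented epithelium and retinal neuron markers, P4ha1, Htra1 and Kdr were added after their values were seen. So were the single markers of fibroblasts and macrophages. The remaining profile and 1 serpin row are not reported here. Alternatives were DESeq2 1.42.0, other scalings and filters, no minimum fold, fits restricted to the compared groups, estimation that was not robust, a replicate block and leaving out each library; bias-adjusted deviances and list counts without WT libraries were added after seeing the data. On simulated data for 11092 genes, 200 of 200 genes changed 4-fold were recovered in each line, with 5 false calls in OVE853, 0 in OVE918 and 2 between the lines. Recovery by spread between pools was not tested. In the measured libraries, not every change above 4-fold passed in OVE853. Of the retinal neuron markers, Calb2 (log2 -4.50, SE 1.335, edgeR adjusted p = 0.0538) and Stmn3 (-3.82, SE 1.13, adjusted p = 0.0528) did not. Cplx3 (-3.52, SE 0.93, edgeR adjusted p = 0.0381) and Scg2 (-3.25, SE 0.92, adjusted p = 0.0473) did. Samples are separate pools of mice, so that p-values measure the spread between pools.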

Additional observations from a re-analysis of the deposited data

Results flagged for a closer look

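Serpine2 in OVE918 is listed because replicate 4 lay far from the other 3 libraries. Its level was 11.7 CPM against 4.77 to 5.57 CPM, a gap of 0.884 of the whole range, above Dixon's 95% critical value for 4 samples. Of 30 genes or sums checked in this way in OVE918 this was the only one, and chance alone flags about 1 in 20 groups.

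Serping1, the complement C1 inhibitor, is listed because its change over WT differed between the lines. Each OVE853 library lay above each OVE918 library, and 29.5% of tested genes did not overlap between the lines in either direction. The log2 difference of OVE918 from OVE853 was -0.89 (SE 0.17, edgeR adjusted p = 0.0382). It was short of a log2 change of 1 and therefore not called, after filterByExpr the adjusted p was 0.0515, and without 1 library it was 0.0129 to 0.174.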

How the results depend on the processing

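The Serpina3 sum kept its direction and its side of the threshold in all 3 comparisons under every alternative and every left-out library. Against WT its log2 fold change was 3.76 to 3.89 in OVE853 and 4.28 to 4.42 in OVE918 under the alternatives, and 3.71 to 4.00 and 4.21 to 4.49 without 1 library. Between the lines it was 0.40 to 0.53 (adjusted p 0.0638 to 0.217), and 0.39 to 0.59 without 1 library.

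Counts moved mostly with the genes tested and the rule. Genes called were 491 in OVE853, 621 in OVE918 and 54 between the lines. With filterByExpr they were 1244 and 1587, with no filter beyond 1 count 1061 and 1548, and with no minimum fold change 1752, 2108 and 145. Between the lines they were 106 by DESeq2, 97 in a fit of only the groups compared and 28 with the replicate block, and 5 to 96 without 1 library (5, 6 and 10 without OVE853 replicate 3, 1 and 2, 13 without OVE918 replicate 1 or 4, 33 without WT replicate 2, 84 without OVE918 replicate 2 and 96 without WT replicate 3). Without 1 library, genes called against WT were 350 to 684 in OVE853 and 537 to 751 in OVE918. Members called were 5 in OVE853 and 4 in OVE918 with filterByExpr, 4 in OVE918 with no filter, and 1 in OVE918 with 2 FPKM in 6 libraries, where Serpina3i was no longer tested. Between the lines 1 member (Serpinf1) passed in a fit of only the groups compared, and 0 to 1 without 1 library (1, again Serpinf1, without WT replicate 3).

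The call of Serpinf1 in OVE853 was lost with no filter (adjusted p = 0.12), in a fit of only the groups compared (0.0958), with the replicate block (0.104) and without each of 8 libraries in turn. Fold changes near 0 of Serpine2 and Serpinh1 changed sign, and none of these was called. Without 1 library, Serpine2 ranged from -0.46 to 0.35 in OVE853 and Serpinh1 from -0.11 to 0.37 in OVE853 and -0.23 to 0.24 in OVE918. The causes were not tested.

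The correlation of deviations from group means between same-numbered libraries was -0.323 to 0.1. Differently numbered libraries were not compared, so this range cannot decide whether the replicate numbers pair the samples. Among the tested members the replicate block changed only the call of Serpinf1 in OVE853. With 3 or 4 pools per group and few counts, Serpina3f cannot be compared, and WT replicate 3 widens the spread of Serpinf1 and Serpinh1.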
